A study of Mus musculus with 7 samples.

Results

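The genes described here are 10 keratins of the epidermis, Krt1, Krt2, Krt5, Krt10, Krt14, Krt15, Krt77, Krt78, Krt79 and Krt80, of 52 keratins and 19937 genes measured. They were listed by name with earlier results of these data known, and Krt77 and Krt15 are treated as chosen by their fall between the days. The rule took, for each gene, the probe set that names it alone with the highest mean over the 7 arrays, and each of the 10 had 1 such probe set. Total RNA from tissue labelled only as mouse was hybridised to 7 Affymetrix gene arrays. Iqgap1 knockout had 2 arrays at day 0 and 2 at day 6; wild type had 1 at day 0 and 2 at day 6. Iqgap1 encodes a scaffold protein that binds kinases of the Ras-ERK cascade. All mice had a mixed C57BL/6 and 129 background, and topical 4OHT (4-hydroxytamoxifen, a ligand that switches on tamoxifen-dependent proteins) is given as the agent of all 4 groups, day 0 included. The labels named no inducible protein, promoter, age or body site. Whether each array is a different mouse is not stated, so p-values cover only the spread between these samples and this may be technical.

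Keratins are the intermediate filament proteins of epithelial cells. A filament is built from pairs of an acidic type I and a basic type II keratin, and the genes of each type lie together in a cluster. In skin, dividing basal cells make the pair Krt5 and Krt14, and cells that leave the basal layer switch to Krt1 and Krt10. Wounded or hyperproliferative epidermis adds the stress keratins Krt6a, Krt6b, Krt16 and Krt17, and hair follicles have keratins of their own.

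Values are log2 RMA values, a scale on which 1 unit is a doubling, and array medians lay between 5.61 and 5.79. Iqgap1 signal was 8.58 to 9.02 in the knockout arrays and 9.94 to 10.59 in the wild-type arrays. Wild-type replicate 1 of day 0 and of day 6 had Xist signal (11.15 and 10.30, against 3.55 to 4.03 in the other 5 arrays) and no signal of the Y-linked gene Eif2s3y (3.72 in each), so sex-linked signal differed within wild type. The labels name no tissue or cell type. The 4 keratinocyte markers that are not among the 10 keratins (Trp63, Dsp, Perp and Sfn) had a mean of 11.70 to 12.18 over the arrays. Means of muscle and fat markers parted by day. The mean of 8 skeletal muscle genes was 11.26 to 12.40 at day 0 and 8.55 to 9.45 at day 6. That of 7 adipocyte genes was 10.08 to 10.90 and 6.74 to 7.70. The mean of 7 fibroblast genes, 10.63 to 12.02 at day 0 and 9.37 to 10.77 at day 6, overlapped between the days. Within the adipocyte list Fabp4 and Lipe changed by only -0.47 and -0.29 over both genotypes, and the other 5 genes by -3.29 to -5.81. The part of such shifts in the keratin values was not tested, and in bulk tissue fewer cells of a type and less RNA per cell cannot be told apart.

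RefSeq (GRCm38.p6) held a promoter window for 7 of the 10 genes (not for Krt1, Krt15 and Krt80). The 250 bases before the annotated start are shown for Krt77, which had the largest fall of all genes, for Krt10 and Krt5, whose changes did not pass the test, and for Krt78, which was higher at day 6. Capitals mark TATANA or GATAAA on the printed strand. The windows, all on the minus strand, are chr15:101869706-101869955 (Krt77), chr11:99389365-99389614 (Krt10), chr15:101712906-101713155 (Krt5) and chr15:101954288-101954537 (Krt78). The starts used for Krt77 and Krt5 are at the end of the gene record, and those for Krt10 and Krt78 lie inside it.
Krt77: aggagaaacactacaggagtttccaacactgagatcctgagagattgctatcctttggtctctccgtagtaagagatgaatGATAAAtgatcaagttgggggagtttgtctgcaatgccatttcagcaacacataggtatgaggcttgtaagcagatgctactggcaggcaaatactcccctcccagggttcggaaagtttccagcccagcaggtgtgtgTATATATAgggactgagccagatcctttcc
Krt10: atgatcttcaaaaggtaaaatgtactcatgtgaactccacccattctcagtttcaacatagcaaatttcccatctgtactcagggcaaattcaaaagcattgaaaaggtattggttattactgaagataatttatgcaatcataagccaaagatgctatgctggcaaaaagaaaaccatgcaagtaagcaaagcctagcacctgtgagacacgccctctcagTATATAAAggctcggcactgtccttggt
Krt5: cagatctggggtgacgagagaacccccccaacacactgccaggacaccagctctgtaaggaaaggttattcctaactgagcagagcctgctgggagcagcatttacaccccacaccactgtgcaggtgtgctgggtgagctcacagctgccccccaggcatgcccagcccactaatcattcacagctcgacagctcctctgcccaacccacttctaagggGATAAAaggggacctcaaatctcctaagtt
Krt78: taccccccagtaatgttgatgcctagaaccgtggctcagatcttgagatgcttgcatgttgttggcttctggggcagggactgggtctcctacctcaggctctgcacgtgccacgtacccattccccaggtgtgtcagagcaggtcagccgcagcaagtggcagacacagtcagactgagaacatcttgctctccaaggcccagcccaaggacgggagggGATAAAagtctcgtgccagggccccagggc
A TATANA match, the core of a TATA box, began 30 bases before the start in Krt77 and 28 before it in Krt10, while Krt5 and Krt78 had GATAAA at 30. Searched on both strands, TATANA was in 3 of the 7 windows (Krt2, Krt10 and Krt77) and in 22.6% of the 32851 windows of all genes, and GATAAA was in 4 (Krt2, Krt5, Krt77 and Krt78) and in 8.79%. The AP-1 motif TGANTCA, bound by Fos and Jun proteins, was in 0 of the 7 and in 6.75% of all. GATAAA was added to the search after these windows had been read. A match says only that the letters are there.

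**Figure D1:**
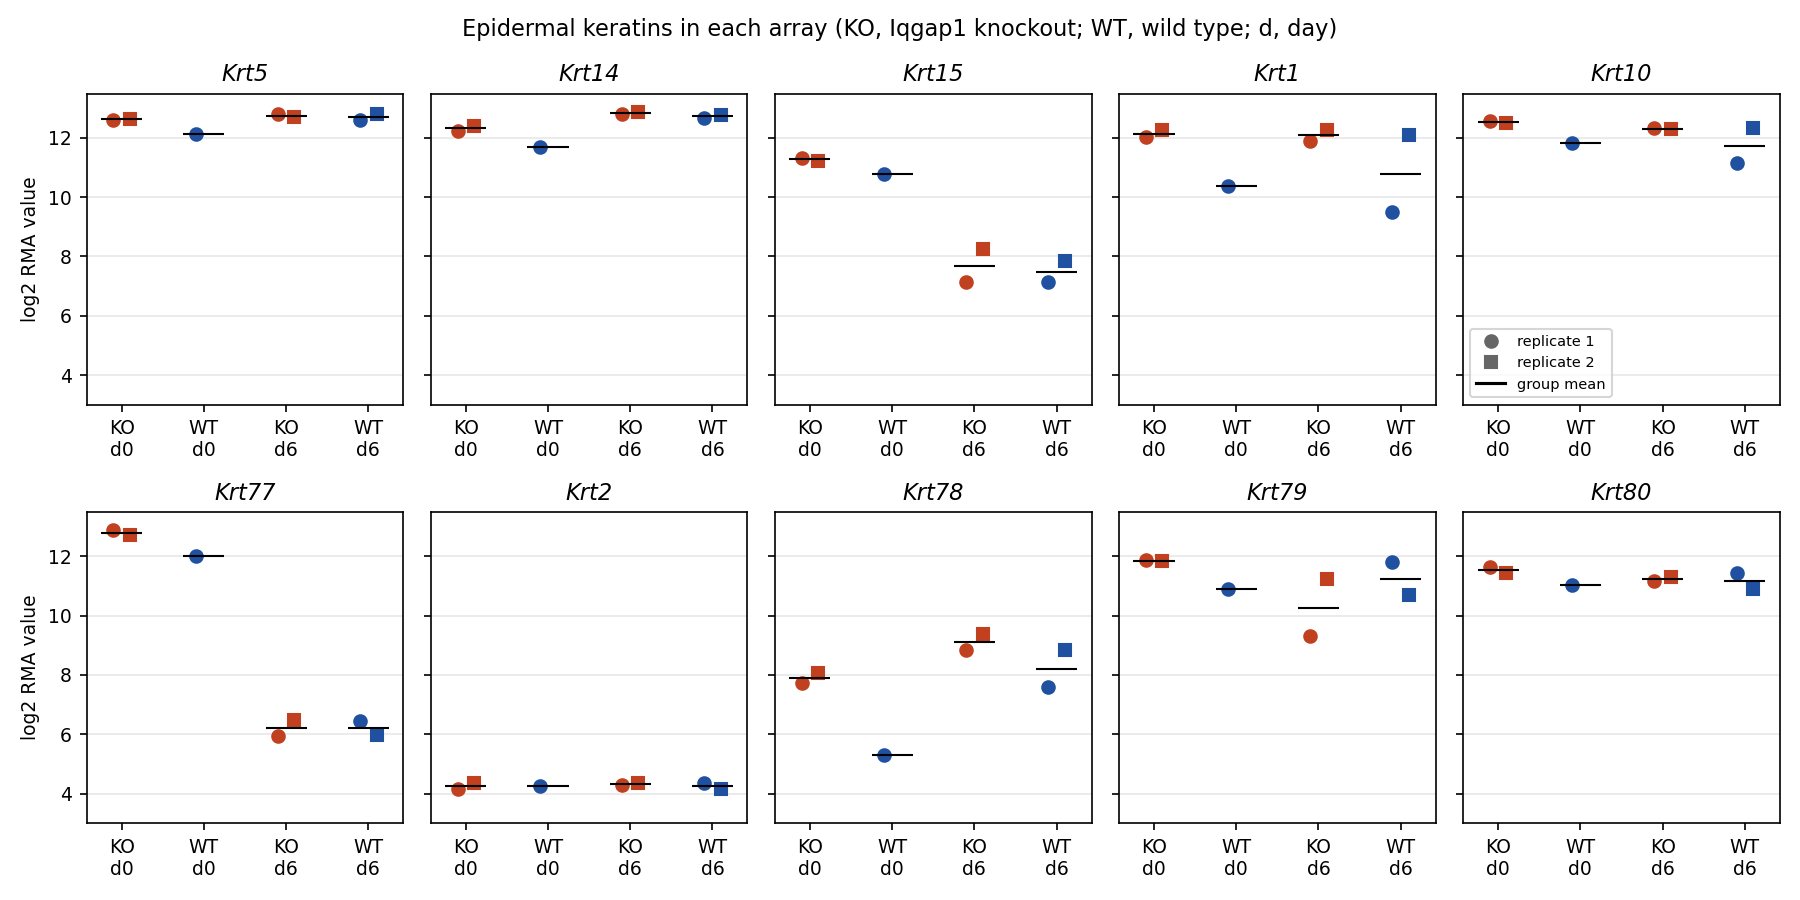
Log2 RMA value (vertical axis) of each epidermal keratin in every array, by group (KO, Iqgap1 knockout; WT, wild type; d0 and d6, day 0 and day 6); circles are replicate 1, squares replicate 2 and lines group means. Krt77 and Krt15 part by day with no overlap, Krt2 stays between 4.14 and 4.37, and Krt1 is lowest in the circles of wild type.

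Krt77, a type II keratin of cells above the basal layer, was near the top of the scale at day 0 and a little above the array medians at day 6. At day 0 it stood at 12.89 and 12.72 in knockout and at 12.02 in wild type. At day 6 it stood at 5.95 and 6.50 in the knockout arrays and at 6.46 and 5.98 in wild type. The groups of the days were far apart: the lowest day 0 array lay 5.53 log2 units above the highest day 6 array, and 9.66% of all genes parted by day in this direction. The fitted difference over both genotypes was -6.27 ± 0.24 (SE), the largest fall among the 19937 genes. It was 96.0-fold in knockout (-6.58 ± 0.25) and 55.9-fold in wild type (-5.80 ± 0.31, SE), where 1 array stands for day 0. Since Krt77 was chosen for this fall, its day change is a description with no test. The day 6 values stayed above 3.50 to 4.25, where sex-linked genes lay on arrays that lacked them. Between genotypes the Krt77 change differed by -0.78 ± 0.40 (SE), which did not pass (limma adjusted p = 0.382).

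Krt15, a type I keratin of basal cells and of the hair follicle stem cell region, was the other gene lower on every day 6 array. Its day 0 values were 11.33 and 11.23 in knockout and 10.79 in wild type. Its day 6 values were 7.13 and 8.26 in knockout and 7.14 and 7.83 in wild type. The days did not overlap, with a gap of 2.53 log2 units, and the day 6 replicates of knockout differed by 1.13. The fitted change was 11.1-fold (-3.47 ± 0.30, SE), the 43rd largest fall; it too was known beforehand and is given with no test. Of 8 measured genes of the hair follicle bulge, the stem cell region, Cd34 (-1.09 ± 0.18) and the transcription factor gene Lhx2 (-1.92 ± 0.34) fell and Dkk3 rose (1.04 ± 0.15, SE), where 5.62% of all genes fell and 5.85% rose. The Dkk3 call was kept without any one array; that of Cd34 was lost without either knockout array of day 0 or knockout replicate 2 of day 6, and that of Lhx2 without knockout replicate 1 of day 0 or replicate 2 of day 6 (limma adjusted p up to 0.0594 and 0.0722). The bulge list mean was 8.52 to 9.26 at day 0 and at most 8.55 at day 6, and its part in the Krt15 values was not tested.

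Apart from Krt77 and Krt15, 2 of the 8 other keratins passed in the day change over both genotypes, Krt14 and Krt78, both higher at day 6. Among all genes 11.5% passed in that comparison (limma, Benjamini-Hochberg over 19937 genes, threshold 0.05), 5.85% upward and 5.62% downward. The comparison is the one with which the genes were chosen, so the count is read no further. For the same reason the day change p-values given below for Krt14 and Krt78 are not an independent test. The median fitted change of the 10 was -0.05, against -0.65 over the 52 keratins and 0.06 over all genes.

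Krt14, the type I partner of basal cells, measured 12.24 and 12.40 (knockout) and 11.71 (wild type) at day 0. At day 6 it was 12.80 and 12.89 in knockout and 12.68 and 12.79 in wild type. Every day 6 array was above every day 0 array, a separation that 11.9% of all genes showed in this direction. Krt14 rose 1.65-fold (0.72 ± 0.15, SE; limma adjusted p = 0.0276). The call was lost without any one of 5 arrays (knockout replicate 1 of day 0, wild type of day 0, either knockout array of day 6 or wild-type replicate 1 of day 6; adjusted p 0.0529 to 0.102), and kept without knockout replicate 2 of day 0 or wild-type replicate 2 of day 6 (0.0499 and 0.0474). Over all alternatives its change lay between 0.52 and 0.82, and within the 5 arrays without Xist signal it was 0.52 (limma adjusted p = 0.0499).

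Krt5, the type II partner of Krt14, measured 12.62 and 12.63 (knockout) and 12.14 (wild type) at day 0, and 12.79, 12.70, 12.60 and 12.79 at day 6 in the 2 knockout and then the 2 wild-type arrays. The day 6 range began just under the highest day 0 value. Its fitted change, 0.29 ± 0.14 (SE), did not pass (limma adjusted p = 0.244). Both genes of the basal pair lay among the highest values of the table, which ends at 13.38; whether signal is limited there was not tested.

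Krt1 and Krt10, the pair of the layers above, overlapped between the days. Krt1 stood at 12.02 and 12.25 (knockout) and 10.40 (wild type) at day 0, and at 11.91 and 12.27 (knockout) and 9.49 and 12.10 (wild type) at day 6. Krt10 stood at 12.56 and 12.51 (knockout) and 11.81 (wild type) at day 0, and at 12.32 and 12.29 (knockout) and 11.14 and 12.33 (wild type) at day 6. In both genes the low arrays were wild-type replicate 1 of each day. The fitted changes were 0.14 ± 0.57 for Krt1 and -0.17 ± 0.27 (SE) for Krt10 (limma adjusted p = 0.912 and 0.751).

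**Figure D2:**
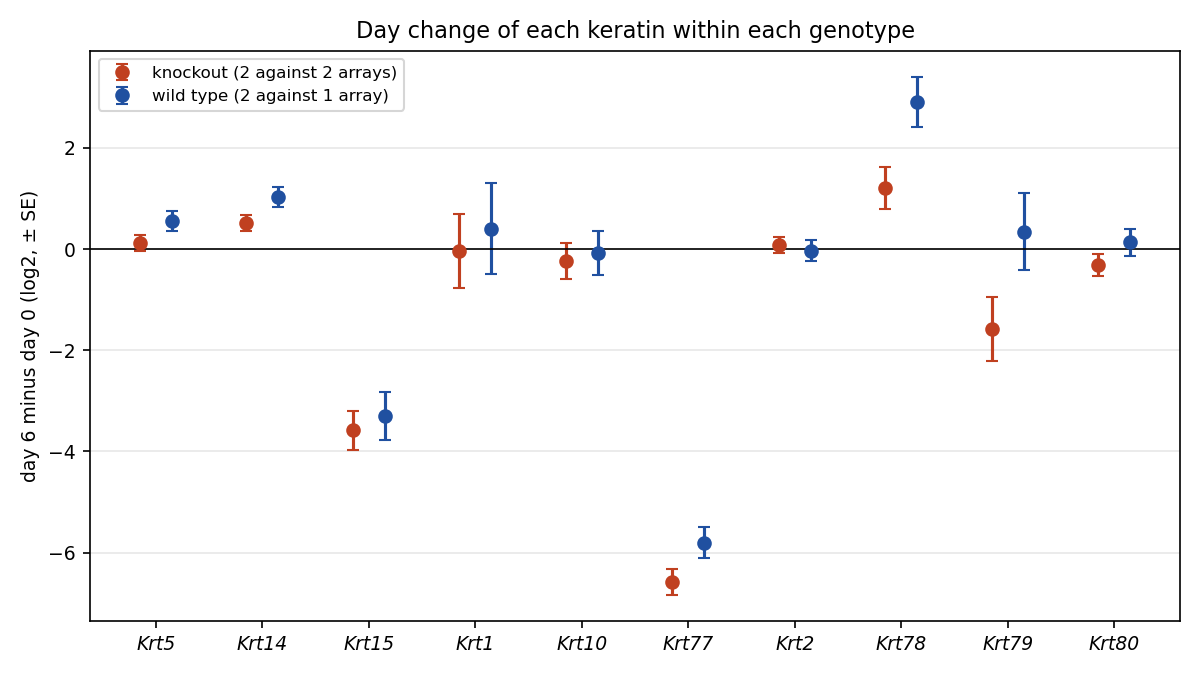
Day 6 minus day 0 (log2, vertical axis) of each epidermal keratin, fitted within knockout (2 against 2 arrays) and wild type (2 against 1 array); bars are standard errors from limma. Krt77 (-6.58 and -5.80) and Krt15 (-3.58 and -3.30) are lower in both genotypes, Krt78 is higher in both, and Krt79 differs in sign between them within wide errors.

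Krt78, a type II keratin of differentiating epidermis, measured 7.73 and 8.06 (knockout) and 5.31 (wild type) at day 0. At day 6 it was 8.83 and 9.37 in knockout and 7.59 and 8.84 in wild type. Within each genotype both day 6 arrays were above every day 0 array, but over both genotypes the days overlapped, since wild-type replicate 1 of day 6 lay under both day 0 knockout arrays. Krt78 rose 3.71-fold (1.89 ± 0.45, SE; limma adjusted p = 0.0413), 224th in the order of rises. The call was kept without wild-type replicate 2 of day 6 (adjusted p = 0.0350) and lost without any other single array (0.0553 to 0.113); without wild type of day 0 the change was 1.21. In wild type alone Krt78 was 7.53-fold higher (2.91 ± 0.50, SE; adjusted p = 0.0186), and in knockout 1.21 ± 0.41 (SE; adjusted p = 0.0980). The knockout change of 1.21 passed in smaller fits: without wild-type replicate 1 or replicate 2 of day 6, or within the 5 arrays without Xist signal, limma adjusted p was 0.0221. The difference between genotypes in the change, -1.70 ± 0.64 (SE), did not pass (limma adjusted p = 0.239), but without wild-type replicate 1 of day 6 it was -2.33 (0.0422), where wild type has 1 array a day and the spread comes from the knockout arrays alone.

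Krt79, a type II keratin of the upper hair follicle and the sebaceous duct, had replicates far apart at day 6. Its day 0 values were 11.86 and 11.85 (knockout) and 10.90 (wild type), and its day 6 values 9.31 and 11.25 (knockout) and 11.80 and 10.69 (wild type). The 2 knockout arrays of day 6 differed by 1.94 log2 units, and the days overlapped. The change of -0.81 ± 0.60 (SE) did not pass (limma adjusted p = 0.461), nor did that in knockout, -1.58 ± 0.62 (SE; adjusted p = 0.150). Without knockout replicate 2 of day 6 the change in knockout was -2.55 (limma adjusted p = 0.0214), and without replicate 1 it was -0.61; in each case 1 array stands for day 6 and is assumed to vary like the other groups, although the 2 replicates lay far apart. The mean of 10 sebaceous gland genes was 9.98 to 10.65 at day 0. At day 6 this mean was 7.23 and 9.60 in knockout and 7.54 and 9.54 in wild type, so it was low in both replicates 1. The gap between replicates was widest in Elovl3 (3.94 and 10.30 in knockout, 4.80 and 10.17 in wild type). Fabp5 showed almost none (12.66 to 12.68). Krt79 was low in replicate 1 of knockout and high in that of wild type. The part of sebaceous genes in the Krt79 values was not tested.

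Krt80, a type II keratin, held a narrow range, with 11.64 and 11.45 (knockout) and 11.03 (wild type) at day 0 and 11.16, 11.30, 11.43 and 10.90 at day 6. The days overlapped and the change of -0.13 ± 0.18 (SE) did not pass (limma adjusted p = 0.702). Krt2, a late differentiation keratin made in only some regions of mouse skin, was 4.14 to 4.37 in all 7 arrays. Sex-linked genes lay at 3.50 to 4.25 on arrays that lacked them, so its change of 0.04 ± 0.12 (SE) is one between arrays with little or no signal.

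Neighbours of the fallen genes did not pass. Krt77 lies between Krt1 and Krt76 in the type II cluster of chromosome 15, and their fitted changes were 0.14 ± 0.57 and 0.38 ± 0.16 (SE; limma adjusted p = 0.912 and 0.185). Krt76 was 4.17 to 4.97 in all arrays. On chromosome 11, Krt15 lies between Krt13 and Krt19, whose changes of 0.44 and -0.46 did not pass (limma adjusted p = 0.131 and 0.173). Krt13 was 4.53 to 5.33 and Krt19 4.805 to 5.60 in all arrays, under the array medians, so they had little signal that could fall. This pair was added after their values were seen. Krt78 and Krt79, with changes of 1.89 and -0.81, are next to each other.

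**Figure D3:**
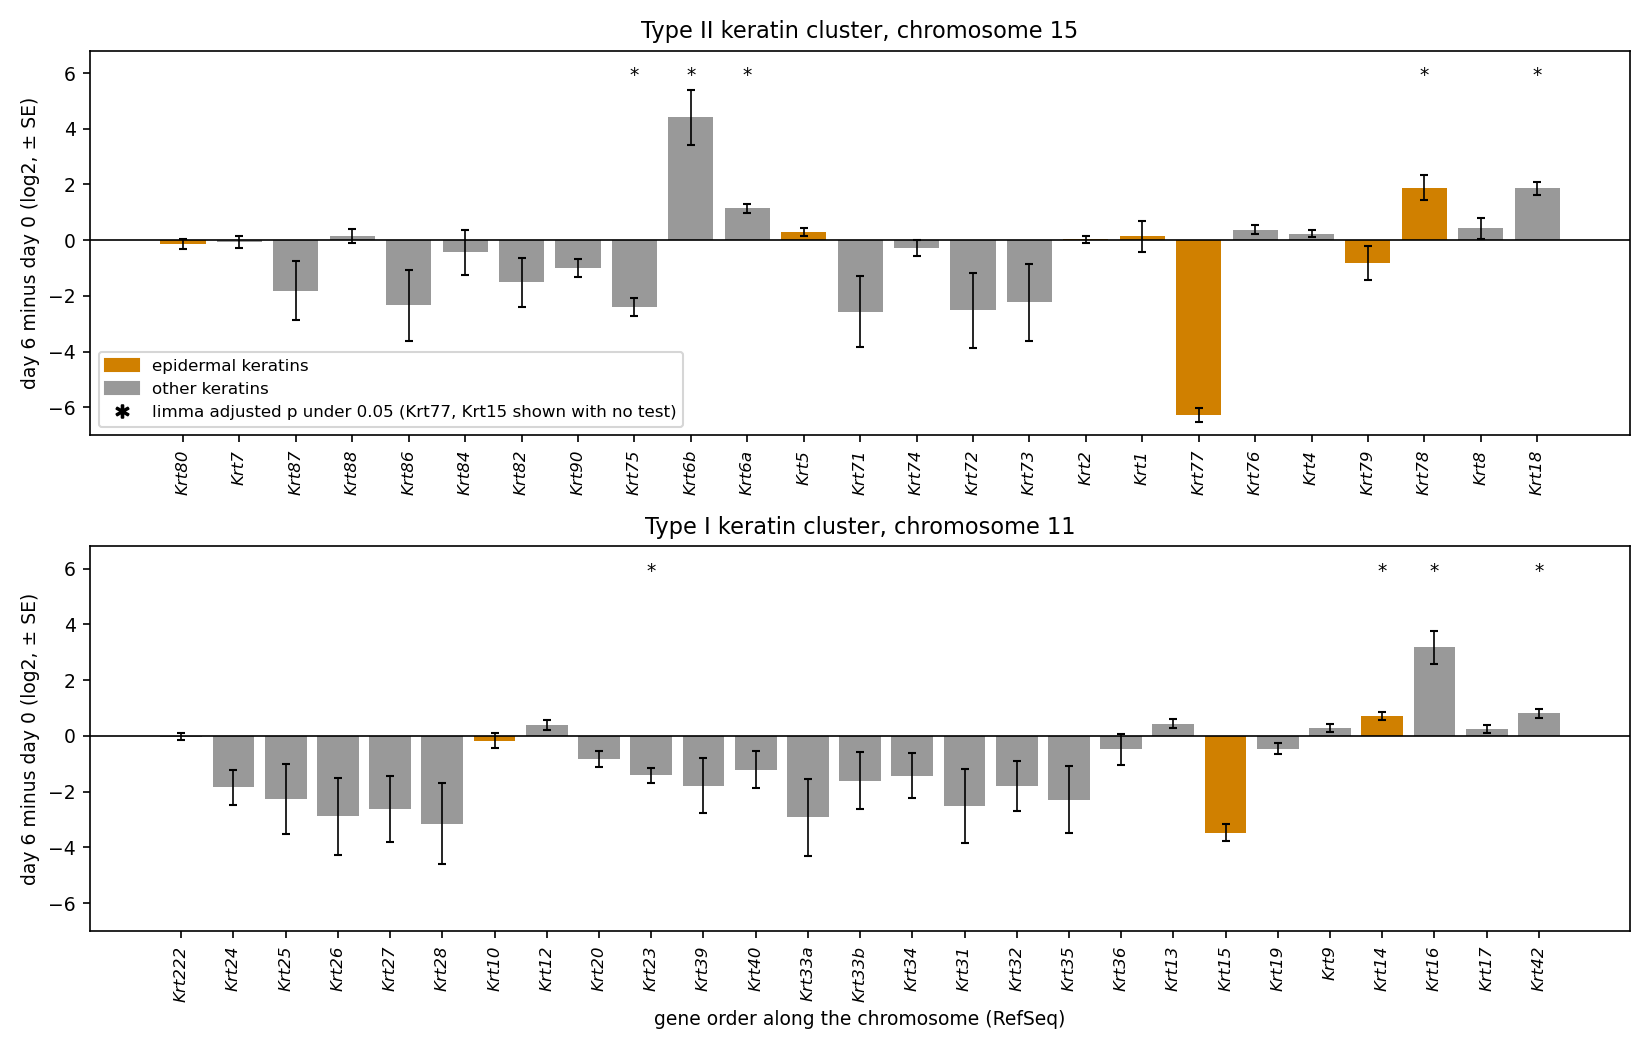
Fitted day 6 minus day 0 difference (log2, bars with standard errors, vertical axis) over both genotypes for the 52 keratins in RefSeq gene order. Epidermal keratins are orange, and asterisks mark limma adjusted p under 0.05, except that Krt77 and Krt15 are shown with no test and carry none. Krt77 (-6.27) stands beside Krt1 (0.14), and many hair keratins have wide errors; Krt18, a type I keratin, lies at the end of the type II cluster.

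Among the other keratins that passed, Krt6b and Krt16 of stressed epidermis had the largest rises. Krt6b (4.41 ± 0.98), Krt16 (3.17 ± 0.60) and Krt6a (1.14 ± 0.15) rose, and Krt17 (0.24 ± 0.14, SE) did not pass (limma adjusted p = 0.0349, 0.0214, 0.00667 and 0.330). Krt6b was 7.54, 11.40 and 6.47 in the day 0 arrays, so knockout replicate 2 of day 0 was already high, and 12.64 to 12.70 at day 6. The simple epithelial keratin Krt18 rose by 1.86 ± 0.24 and Krt42 by 0.82 ± 0.16 (SE). Krt75, a keratin of the hair follicle companion layer, and Krt23 fell by 2.39 and 1.41 on the log2 scale. No further keratin passed in the day change over both genotypes. The calls of Krt6a, Krt18 and Krt75 were kept without any one array (limma adjusted p at most 0.0349, 0.0288 and 0.0344). That of Krt6b was kept only without knockout replicate 2 of day 0 (5.67, limma adjusted p = 0.000409) and lost without any other single array, and those of Krt16, Krt42 and Krt23 were lost without 3, 5 and 4 of the 7 arrays in turn.

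Each of the other lists of epidermal genes is set against the 5.85% of all genes that rose and the 5.62% that fell. Of 19 genes of the suprabasal and cornified layers, 3 rose and 1 fell (median 0.48). The desmosome cadherin gene Dsg1b (1.55 ± 0.13), the cornification protease gene Casp14 (1.99 ± 0.21) and the crosslinking enzyme gene Tgm1 (0.95 ± 0.14) rose, while Flg2, a filaggrin relative, fell (-3.67 ± 0.57, SE). Of 11 basal adhesion and identity genes 2 rose and 0 fell (median 0.74), Lama3 (1.67 ± 0.22), a laminin chain, and Cdh3 (1.70 ± 0.30, SE), which encodes P-cadherin. Of 13 genes that anchor keratin at desmosomes and plakin sites, 3 rose and 2 fell (median 0.32), among them Dsg3 (0.96 ± 0.13) and Dsc2 (2.43 ± 0.43) upward and the plakin gene Eppk1 (-1.62 ± 0.25) and Pkp2 (-1.05 ± 0.17, SE) downward. Of 21 regulators of epidermal differentiation, Prdm1 (1.21 ± 0.16), Zfp750 (0.86 ± 0.16) and Tfap2a (0.64 ± 0.12) rose and Gata3 (-1.04 ± 0.21, SE) fell (median 0.21). Of 8 simple and mucosal epithelial keratins Krt18 rose and 0 fell (median 0.31). Of the genes named from these lists, Krt18, Dsg1b, Casp14, Lama3, Dsg3 and Prdm1 kept their call without any one array, and the others lost it without at least 1.

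The arrays' profile most like that of Krt77, by the root mean square difference of values centred on each gene's mean over 7 arrays, was that of Lep, the fat hormone leptin (0.29 log2 units), among 18263 genes. Serpina3b (0.37), Mylk4 (0.76), the muscle calcium-binding protein gene Pvalb (0.79) and Skint10 (0.87) followed. For Krt15 the nearest were Ces1d (0.23), Pkia (0.25), Ecm2 (0.30), Abcd2 (0.34) and Cox7a1 (0.34). Such likeness is a description over arrays that part by day. Lep is in the adipocyte list and Pvalb in the skeletal muscle list. Serpina3b, Skint10 and the other genes named are in no list used here.

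The second question was whether knockout and wild type differed. At day 6, 0 of the 10 keratins passed (limma adjusted p under 0.05) and 0 had an unadjusted p under 0.05, where 0% and 5.93% of all genes did. Krt77 was 6.22 ± 0.39 in knockout and 6.22 ± 0.34 (SD, n = 2 each) in wild type. Krt15 was 7.69 ± 0.80 and 7.49 ± 0.49, and Krt14 was 12.84 ± 0.06 and 12.74 ± 0.07 (SD, n = 2 each). The spread of wild type was wide in Krt1 (10.80 ± 1.85 against 12.09 ± 0.26 in knockout) and in Krt10 (11.73 ± 0.84 against 12.31 ± 0.02, SD, n = 2 each). The differences were 1.30 ± 0.73 for Krt1, 0.57 ± 0.35 for Krt10, 0.88 ± 0.41 for Krt78 and -0.97 ± 0.62 (SE) for Krt79 (limma adjusted p between 0.802 and 0.833). Without wild-type replicate 1 of day 6, Krt1 and Krt10 differed by -0.0097 and -0.024, and without replicate 2 by 2.60 and 1.17, where Krt1 passed (limma adjusted p = 0.0376) with 1 wild-type array at day 6 whose spread is taken from the knockout arrays.

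**Figure D4:**
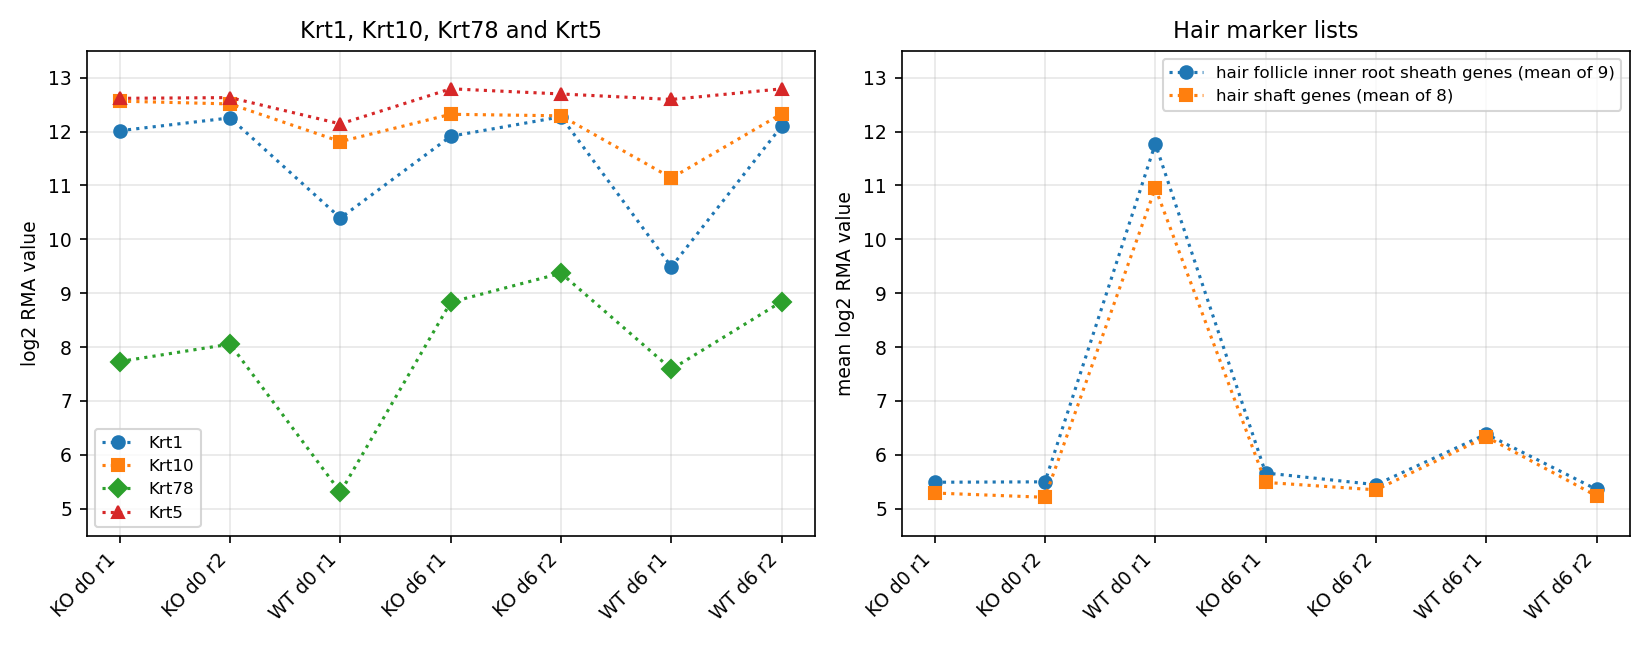
Left, log2 RMA values (vertical axis) of Krt1, Krt10, Krt78 and Krt5 in each array (KO, knockout; WT, wild type; d, day; r, replicate); right, the mean log2 value of 9 inner root sheath and 8 hair shaft genes in the same arrays. The 4 keratins are lowest in WT d0 r1 or WT d6 r1, and the hair lists are highest in WT d0 r1 (11.77 and 10.95) and next in WT d6 r1 (6.38 and 6.33); lines only join the points of one gene or list.

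Over both days, 0 of the 10 passed for genotype, where 0% of all genes did; Krt1 and Krt78 had an unadjusted limma p under 0.05, as did 18.7% of all genes. Knockout was higher by 1.47 ± 0.57 in Krt1, 0.63 ± 0.27 in Krt10 and 1.57 ± 0.45 (SE) in Krt78 (limma adjusted p = 0.254, 0.274 and 0.239). These differences lay in the wild-type arrays with Xist signal, which held the lowest Krt1 values (9.49 and 10.40, against 11.91 to 12.27 in the other 5 arrays), the lowest Krt10 values (11.14 and 11.81, against 12.29 to 12.56) and the lowest Krt78 values (5.31 and 7.59, against 7.73 to 9.37). Krt5 was lowest there as well (12.14 and 12.60, against 12.62 to 12.79), whereas Krt14, Krt15, Krt77, Krt79 and Krt80 overlapped the other arrays. Without both arrays the genotype differences were -0.0097 in Krt1, -0.024 in Krt10 and 0.26 in Krt78. Only wild-type replicate 2 of day 6 is then left, so these are differences at day 6 and not over both days. Means of the hair lists were highest in these arrays. That of 9 inner root sheath genes was 11.77 and 6.38 in them and 5.36 to 5.66 in the other 5. That of 8 hair shaft genes was 10.95 and 6.33, against 5.21 to 5.49. In wild-type replicate 1 of day 6, Krt25 (7.53), Krt27 (7.49) and Krt71 (7.73) lifted the inner root sheath mean most. Krt28 (3.64), Krt72 (5.50) and Gata3 (8.66) were not above all of the other 5 arrays there. Gata3 was also lower in wild type of day 0 (10.04) than in knockout of day 0 (10.45 and 10.72). Sex-linked signal, hair list means and the keratin levels set the same 2 arrays apart, but not in the same order. The hair means were higher in that of day 0. Krt78 and Krt5 were lowest in that of day 0, and Krt1 and Krt10 in that of day 6. Both arrays are also wild type, so genotype, the single samples, sex-linked signal and hair genes cannot be told apart here. Whether any of them has a part in the keratin levels was not tested.

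At day 0, with 1 wild-type array, Krt78 alone of the 10 passed, where 14.4% of all genes did (8.53% higher in knockout). It was 6.01-fold higher in knockout (2.59 ± 0.50, SE; limma adjusted p = 0.0195), but not past the threshold without knockout replicate 2 (adjusted p = 0.0646) or with a term for the arrays with Xist signal (1.33, adjusted p = 0.183). Krt77 (0.78 ± 0.31), Krt14 (0.62 ± 0.19) and Krt5 (0.48 ± 0.19, SE) were also higher in knockout and did not pass (limma adjusted p = 0.139, 0.0787 and 0.146). Of the 52 keratins, 20 were more than 4-fold higher in the wild-type day 0 array than in any other array, and 0 of these were among the 10. The share of all genes that met this rule was not counted, so the 0 is read no further.

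The day change itself differed between genotypes in 0 of the 10 keratins by limma adjusted p, where 3.1% of all genes passed; Krt78 had an unadjusted p under 0.05, as did 17.3% of all genes. In wild type, with 1 array at day 0, Krt14 (1.03 ± 0.19, adjusted p = 0.0246) and Krt78 rose, and Krt5 (0.55 ± 0.19, SE, adjusted p = 0.162) did not pass; 7.11% of all genes were called there, 3.51% upward. The Krt14 call in wild type was lost without any one knockout array or without wild-type replicate 2 of day 6 (limma adjusted p 0.0504 to 0.0571). In knockout Krt14 changed by 0.52 ± 0.16 (SE; adjusted p = 0.0703) and none of the 8 tested keratins passed, where 16.3% of all genes did; Krt14, Krt78 and Krt79 had an unadjusted p under 0.05, as did 28.7% of all genes. The difference in the Krt14 change, -0.51 ± 0.25 (SE), did not pass (limma adjusted p = 0.362).

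The basal adhesion and identity list, whose genes anchor the cells that make Krt5 and Krt14, had unlike counts in the 2 genotypes. In wild type 7 of 11 rose and 0 fell (median 1.47), and in knockout 3 rose and 1 fell (median 0.21). Among all genes 7.11% were called in wild type, 3.51% upward, and 16.3% were called in knockout in either direction. Lamb3, a laminin chain, rose by 3.41 ± 0.28 in wild type and by 0.95 ± 0.23 (SE) in knockout, and Dst, a plakin, fell in knockout (-1.87 ± 0.27, SE). At day 0, 8 of the 11 were higher in knockout (median 1.26), where 8.53% of all genes were. The change in wild type, the day 0 difference and the difference of day change all use the 1 wild-type array of day 0. For the difference of day change, 3.1% of all genes were called in either direction. In the difference of day change 4 of 11 were lower in knockout (median -1.32), but 0 were without knockout replicate 2 of day 0 or either knockout array of day 6, and 1 without knockout replicate 1 of day 0. At day 0 the count was 4 without knockout replicate 2 and 3 with the term for Xist signal. Over both genotypes it was 1 rise without any one knockout array, and 3 rises and 1 fall without wild type of day 0. Of the 19 suprabasal genes 6 rose and 0 fell in wild type and 5 rose and 1 fell in knockout. They are to be set against the same shares of all genes.

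**Figure D5:**
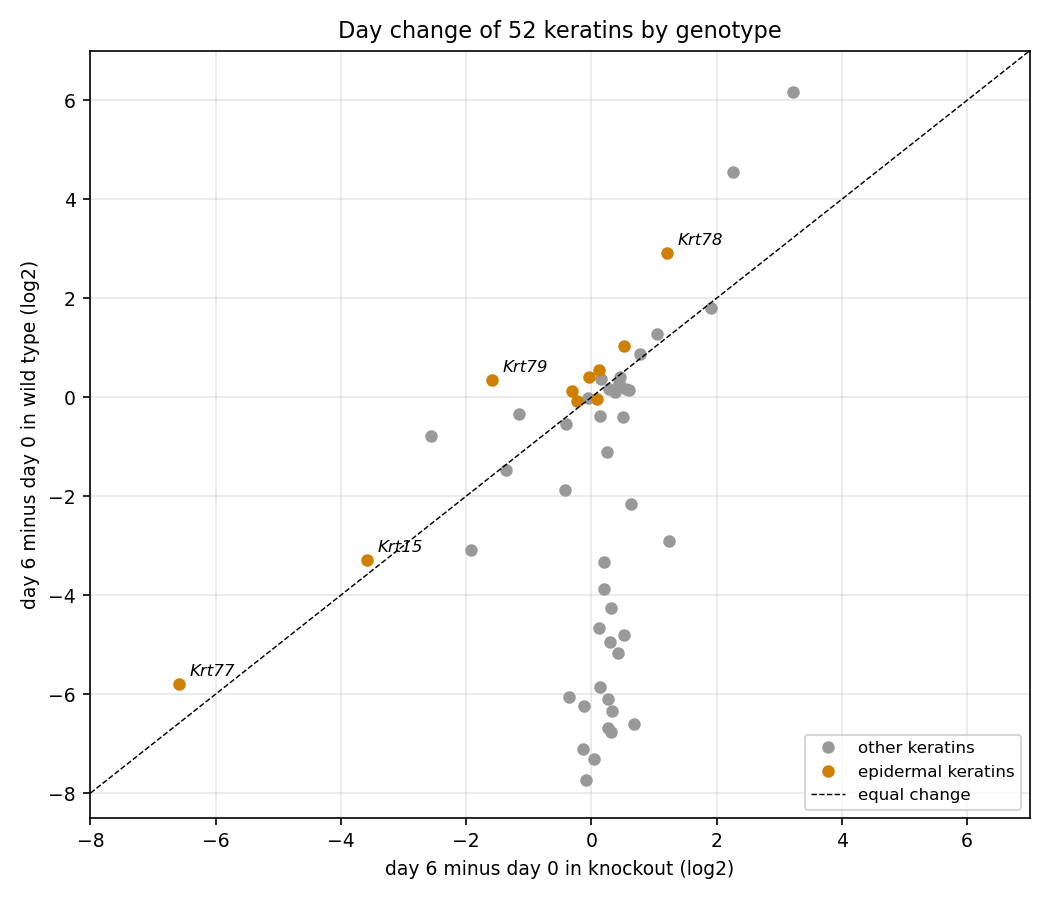
Fitted day 6 minus day 0 difference (log2) of 52 keratins in knockout (horizontal axis) and wild type (vertical axis), with the line of equal change dashed; orange points are the epidermal keratins. Krt77 and Krt15 lie near the line, and a column of other keratins near 0 in knockout is far below 0 in wild type, whose day 0 array was the one with high hair keratins.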

How the data were processed

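The authors deposited log2 expression values. The submitters' processing notes name RMA and R 2.11.1, and a range of 2.37 to 13.38 fits the log2 scale. RMA corrects background, normalizes arrays by quantiles and summarizes probes, so fold changes near either end of the scale can be understated. Its settings, and any batch, are not given in the sources used here. Genes were named by the platform's gene table; a gene's probe set was the one naming it alone with the highest mean, which gave 19937 genes. Differences were fitted with limma 3.58.1 in R 4.3.3 (lmFit, eBayes; two-sided, Benjamini-Hochberg, threshold 0.05). Changes over both genotypes or both days came from an additive fit (4 residual degrees of freedom), the others from 4 group means (3), where wild type at day 0, with 1 array, is assumed to vary as the other groups do; so is any group that leaving out an array brings down to 1. The additive fit of the day was tested on simulated data with independent noise and planted changes by day. The other comparisons, and arrays that differ as a whole, were not simulated. Members and lists were chosen with earlier results of these data known. Named genes were the 10 keratins, up to 4 per list with the smallest p, other keratins past the threshold (at most 5 each way), the 5 profiles nearest to Krt77 and to Krt15, and RefSeq neighbours. The number of arrays limits the precision.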

Additional observations from a re-analysis of the deposited data

How the results depend on the processing

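In 15 alternative settings the fitted day changes of Krt77 and Krt15 over both genotypes kept their direction (-6.58 to -6.06 and -3.72 to -3.16), as did those of Krt14 (0.52 to 0.82) and Krt78 (1.21 to 2.19), whose adjusted p ranged from 0.00870 to 0.102 and from 0.0221 to 0.113. Leaving out 1 array in turn, the keratins called higher numbered 0 to 2 for the day over both genotypes, 0 to 2 in knockout, 1 to 3 in wild type, 0 to 3 for genotype over both days, 0 to 1 at day 6 and 0 to 3 at day 0, and those called lower for the difference in day change 0 to 2. For the day over both genotypes, 1 was called higher with all probe sets tested and 0 with arrays centred on their medians, against 2. In knockout 2 were called higher without wild-type replicate 1 of both days or with a term for the arrays with Xist signal, and 1 with trend and robust options, against 0. With that term 1 was called higher in wild type, against 2, and 0 at day 0, against 1. Trend and robust options gave 3 at day 0. The number of all genes called also moved between settings, as given below, and its share is not set beside each count. The keratin counts are therefore read no further. The sign turned for these changes, given as the range when 1 array is left out. For the day over both genotypes it was -0.33 to 0.54 in Krt1, -0.020 to 0.083 in Krt2 and -0.38 to 0.018 in Krt10; at day 6 between genotypes it was -0.0097 to 2.60 in Krt1, -0.024 to 1.17 in Krt10 and -1.94 to 0.00060 in Krt79. Without wild-type replicate 1 of both days the Krt1 day change was -0.041, and with the Xist term it was -0.33. In these 2 settings the genotype difference at day 6 was -0.0097 in Krt1 and -0.024 in Krt10. Over both days it was -0.15 and -0.10 with the term. Without those arrays it was the same as at day 6, the only day with a wild-type array left. Of 28 other keratins, neighbours and list genes whose change by day is given over both genotypes, 24 were called and 15 of these lost the call without at least 1 array; 0 of the 28 changed sign in a setting that was run. The genes most like Krt77 and Krt15 were not rerun, nor were the changes of Lamb3 and Dst by genotype. The cause was not tested.

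Deviations of same-numbered replicates correlated at 0.09, 0.04 and 0.23 in the 3 pairs of groups, the last being the pair at day 6, so the numbers were not taken to pair the samples. With the replicate block 1 keratin, Krt78, was called higher in knockout against 0, the Krt1 day change over both genotypes was -0.076, and the number of all genes called for the day went from 2286 to 1745. Krt2 was removed by the filter on low values, and comparisons that need wild type of day 0 could not be fitted without it. Over all genes, leaving out 1 array gave 727 to 3251 calls for the day over both genotypes (2286 with every array), 1381 to 4027 in knockout (3251), 1040 to 2209 in wild type (1418), 1239 to 4328 at day 0 (2869), 143 to 1038 for the difference in day change (619), 0 to 43 at day 6 (0) and 0 to 836 for genotype over both days (0). The Xist term gave 682 at day 0, and leaving out wild-type replicate 1 of both days gave 4027 for the day.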
